A study of Mus musculus with 6 samples.

Results

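Smooth muscle and pericyte genes were followed in mouse gastrocnemius, a mostly fast calf muscle, through 10 genes: Acta2, Actg2, Tagln, Myh11, Cnn1, Mylk, Des, Rgs5, Pdgfrb and Notch3. They were taken by gene symbol, not by their values, from the 18193 genes that the expression array names, and all 10 were among the 11526 genes bright enough to be tested. They had 21 probe sets in all, and the brightest one by mean log2 signal stood for its gene. The other 11 probe sets served as a check, 9 of them above the brightness filter.

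Smooth muscle cells wrap arteries and arterioles and set their diameter. They do so with their own set of actins, myosin and actin-binding proteins. Pericytes sit on capillaries, carry the platelet-derived growth factor receptor and depend on Notch signals from the endothelium. Many contractile genes of smooth muscle share control by serum response factor with its partners of the myocardin family. Serum response factor binds a DNA element known as the CArG box.

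The muscles came from male C57BL/6J mice that began their diets at 6 weeks of age and ate them for 15 weeks. The labels also carry an age of 21 months, which does not match that schedule. No genotype other than the strain and no transgene is named. Fat supplied 10 kcal% of the Control diet and 60 kcal% of the high-fat diet, HF. The third diet, HF+SFC+ALA, added to the latter 0.023% of the iron salt sodium ferrous citrate (SFC) and 0.2% of the heme precursor 5-aminolevulinic acid phosphate (ALA), both by weight. Food was withheld for 4 h or for 24 h before sampling, so that 3 diets and 2 fasting times gave 6 groups. Each group was 1 array hybridised with pooled RNA, and how many animals each pool held is not stated in the sources at hand. With no replicate pool, the error of each difference starts from the spread left between pools after diet and fasting time are accounted for, which may be technical. A fasting response that depends on diet would add to that spread. The limma fit then draws the error of a gene toward that of other genes of like signal. This borrowed part weighs more than the gene's own pools (7.27 prior against 2 residual degrees of freedom). With so few arrays, precision is limited throughout.

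The sequence before a listed start of Acta2, the smooth muscle alpha-actin, is shown because this gene and the other contractile genes below varied together over the pools. Promoters of 6 of the 10 genes were taken from the RefSeq table and searched (Acta2, Cnn1, Des, Mylk, Notch3 and Rgs5). Each had 250 bases before and 50 bases after the gene's start. Pdgfrb was left out of the search, and Actg2, Tagln and Myh11 were not searched either. Nothing is therefore said of the promoters of these genes. The letters below are the 250 bases before the listed start, 5′ to 3′, on the minus strand of GRCm38.p6 at chr19:34255374-34255623. Capitals mark CArG boxes that hold 1 C or G among their 6 central bases.
Acta2: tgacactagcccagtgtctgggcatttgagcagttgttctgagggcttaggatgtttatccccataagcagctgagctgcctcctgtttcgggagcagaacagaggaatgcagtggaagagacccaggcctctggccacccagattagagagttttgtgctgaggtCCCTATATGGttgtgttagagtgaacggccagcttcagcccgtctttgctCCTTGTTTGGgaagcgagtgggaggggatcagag
The element CCCTATATGG lay 84 to 75 bases upstream of the listed start and CCTTGTTTGG 34 to 25 bases upstream. Both lay within the annotated span of the gene. The CArG pattern reads the same way on both strands, so a single search covered both, and its matches may overlap. At least 2 such elements were found in 223 of 32851 promoters of 300 bases (0.679%), and at least 1 in 2792 (8.5%). The strict CArG box, with only A or T in the centre, was present in 535 promoters (1.63%) and in none of the 6 matched here. The windows of Cnn1, Des, Mylk, Notch3 and Rgs5 held neither form. The Mylk window, from chr16:34784700, lay within the annotated span of that gene, which begins at 34745199. A match describes the letters of the window and is not a measured binding site.

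Signals are on the linear scale of the deposited values, in arbitrary units, and single genes are compared only within a probe set. The list sums given below add probe sets on unlike scales, so the brightest weigh most. The tissue label was borne out by genes of skeletal muscle fibres. Acta1 (skeletal actin, 41541 to 47742), Ckm (muscle creatine kinase, 37327 to 47593), Myh4, Mylpf and Tnnt3 were bright in every pool. Arrays had median signals of 63 to 69.5, with 68.9% to 71.6% of probe sets above the floor of 26.4. The actin control probe sets, which gauge RNA integrity by their 3′ over 5′ signal, gave a ratio of 1.52 for HF at 4 h and 1.08 to 1.22 elsewhere. Its part in the results below was not tested.

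Acta2 builds the thin filaments of smooth muscle. Its signal at 4 h was 8683 in the Control pool, 8998 in the HF pool and 6821 in the HF+SFC+ALA pool. At 24 h it was 5549, 7034 and 5089 in the same order. Every diet had the lower value at 24 h, and the fasting times overlapped because the HF pool at 24 h exceeded the HF+SFC+ALA pool at 4 h. Actg2, the smooth muscle gamma-actin, had signals of 307, 454 and 312 at 4 h on Control, HF and HF+SFC+ALA. At 24 h these were 156, 238 and 185, so that every pool at 24 h lay below every pool at 4 h. Tagln encodes transgelin, an actin-binding protein of smooth muscle. Its 4 h signals were 2276, 3368 and 2202 in the same order of diets, and its 24 h signals were 1833, 2514 and 1517. The HF pool was the highest of the diets at each time, and the HF pool at 24 h still exceeded the Control and HF+SFC+ALA pools at 4 h.

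Myh11, the smooth muscle myosin heavy chain, stood at 813, 876 and 861 at 4 h on Control, HF and HF+SFC+ALA. At 24 h its signals were 603, 1034 and 667. The HF pool was higher at 24 h than at 4 h and the other pools were lower. Cnn1, calponin 1, which binds actin and tunes contraction, had the widest range of the members within its own probe set, 9.54 times from lowest to highest. Its signals were 252, 310 and 128 at 4 h and 32.5, 189 and 109 at 24 h. The lowest value, in the Control pool at 24 h, was close to the floor. Mylk, the myosin light chain kinase that starts smooth muscle contraction, varied by 1.26 times. Its signals were 1965, 1925 and 1847 at 4 h and 1560, 1869 and 1599 at 24 h, with the Control and HF+SFC+ALA pools at 24 h the lowest.

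Des, Rgs5, Pdgfrb and Notch3 varied little. Des encodes desmin, the intermediate filament of smooth and skeletal muscle alike, so in this tissue its signal is not a measure of mural cells. It ran from 27999 (HF, 4 h) to 32942 (HF+SFC+ALA, 4 h), with 31925 in the Control pool at 4 h and 32130, 32719 and 28883 at 24 h. Rgs5, a regulator of G protein signalling and a pericyte marker, had signals of 18638, 19000 and 20104 at 4 h. At 24 h they were 19546, 21916 and 19615, the HF pool being highest. Pdgfrb is the receptor through which platelet-derived growth factor recruits pericytes. Its signals were 2034, 2204 and 1990 at 4 h and 2107, 2007 and 2141 at 24 h, a range of 1.11 times. Notch3, the Notch receptor of mural cells, had signals of 908, 807 and 805 at 4 h and 852, 953 and 805 at 24 h. In each of these 4 genes, by the brightest probe set, the fasting times overlapped and the order of the diets changed between 4 h and 24 h. The other Notch3 probe set was lower at 24 h without overlap, with 229, 238 and 214 at 4 h and 201, 201 and 173 at 24 h. A pool has no spread of its own, so neighbours in these orders cannot be separated.

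**Figure D1:**
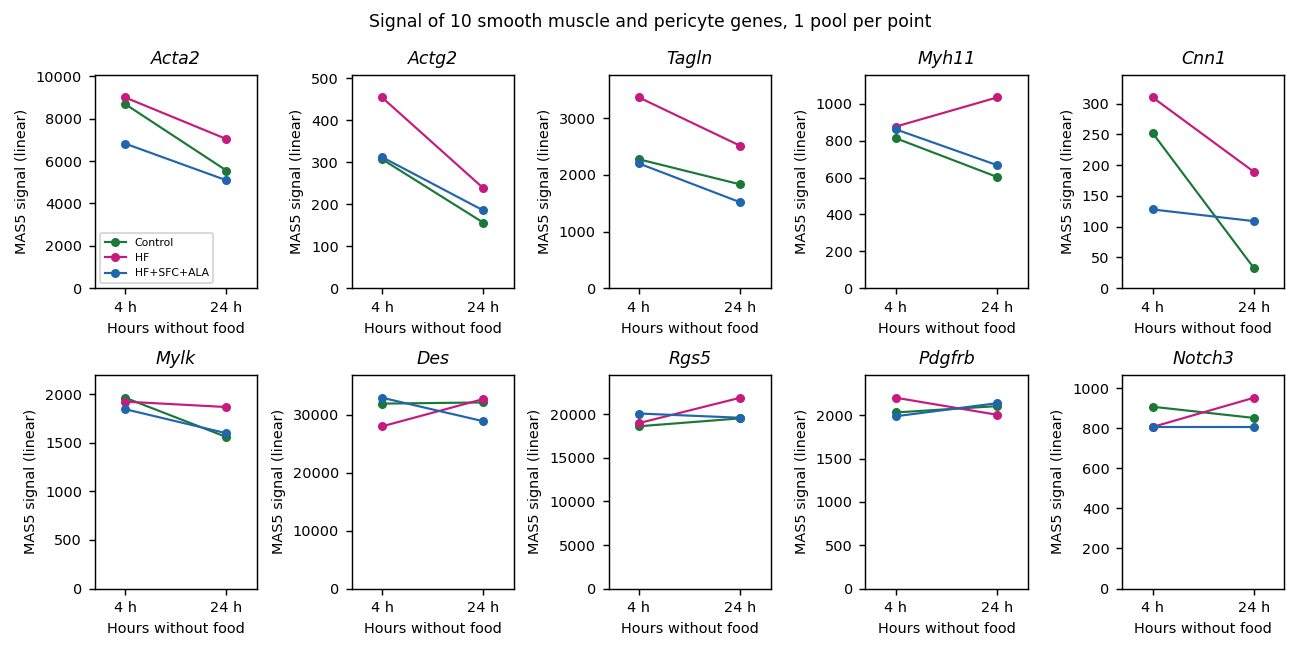
MAS5 signal on a linear scale (y, from 0) at 4 h and 24 h without food (x) for the 10 genes, 1 point per pool and 1 line per diet. The HF line is the top one at both times for Acta2, Actg2, Tagln, Myh11 and Cnn1 (under median centring for Actg2, Tagln and Cnn1 only), and all 3 lines slope down for Acta2, Actg2, Tagln, Cnn1 and Mylk.

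The first comparison asked how 24 h without food differed from 4 h over the 3 diets. Acta2, Actg2 and Tagln fell, and no member rose. Acta2 fell 1.39-fold (log2 difference -0.47 ± 0.07, SE, limma adjusted p = 0.015), and its pairs of pools gave -0.65 on Control, -0.36 on HF and -0.42 on HF+SFC+ALA. Actg2 fell 1.85-fold (-0.89 ± 0.15, limma adjusted p = 0.0206), by -0.98, -0.93 and -0.75 in the same diets. Tagln fell 1.34-fold (-0.42 ± 0.08, limma adjusted p = 0.0276), by -0.31, -0.42 and -0.54. In muscle RNA, fewer cells of a type and less RNA per cell cannot be told apart. Among all genes 278 of 11526 passed (2.41%), and 0.92% passed as lower, against these 3 of 10 members. The called genes were 61.9% higher, and 44.2% when arrays were centred on their medians.

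The other contractile genes did not pass. Cnn1 differed by -1.30 ± 0.44 (limma adjusted p = 0.166), the Control pair giving -2.96, the HF pair -0.71 and the HF+SFC+ALA pair -0.24. The Control pair holds the near-floor pool at 24 h. Mylk differed by -0.19 ± 0.08 (limma adjusted p = 0.268) and was lower in 3 of 3 pairs. Myh11 differed by -0.19 ± 0.14 (limma adjusted p = 0.53), and its HF pair was 0.24 where Control and HF+SFC+ALA were -0.43 and -0.37. Rgs5 (0.08, 95% interval -0.07 to 0.23), Notch3 (0.05, -0.18 to 0.28), Des (0.01, -0.17 to 0.20) and Pdgfrb (0.01, -0.17 to 0.19) had intervals around 0.

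The median fasting difference over the 10 members was -0.19 against 0.01 over all genes tested. It was -0.32 within the Control pair, -0.09 within HF and -0.22 within HF+SFC+ALA. In every pair 5 of 10 members were below 0 (Acta2, Actg2, Tagln, Cnn1 and Mylk), against 18.3% of all genes. By the brightest probe sets, Actg2 was the 1 member whose pools did not overlap between the times and were lower at 24 h, against 8.36% of genes. None was higher without overlap, against 10.6%. Under median centring Acta2 and Mylk joined Actg2 as lower without overlap.

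The calls, though not the direction, depended on single pools. Leaving out a pool drops the pair of its diet and leaves fewer residual degrees of freedom. Estimates without the HF+SFC+ALA pool at 4 h or at 24 h were -0.50 for Acta2, -0.96 for Actg2 and -0.37 for Tagln. Over all pools they were -0.47, -0.89 and -0.42. Without the HF+SFC+ALA pool at 4 h, the limma adjusted p was 0.0868 for Acta2, 0.101 for Actg2 and 0.202 for Tagln, and without that at 24 h it was 0.0873, 0.0922 and 0.199. Without the HF pool at 4 h Acta2 alone passed, with 0.0582 for Actg2 and 0.0512 for Tagln. The second Acta2 probe set above the filter gave -0.50 ± 0.30 (limma adjusted p = 0.448), the Control, HF and HF+SFC+ALA pairs giving -1.04, 0.09 and -0.56. The probe set that stands for Acta2 is of a type that can also detect related transcripts. Skeletal actin, Acta1, had pair differences of 0.08, 0.20 and -0.07 in the same diets.

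**Figure D2:**
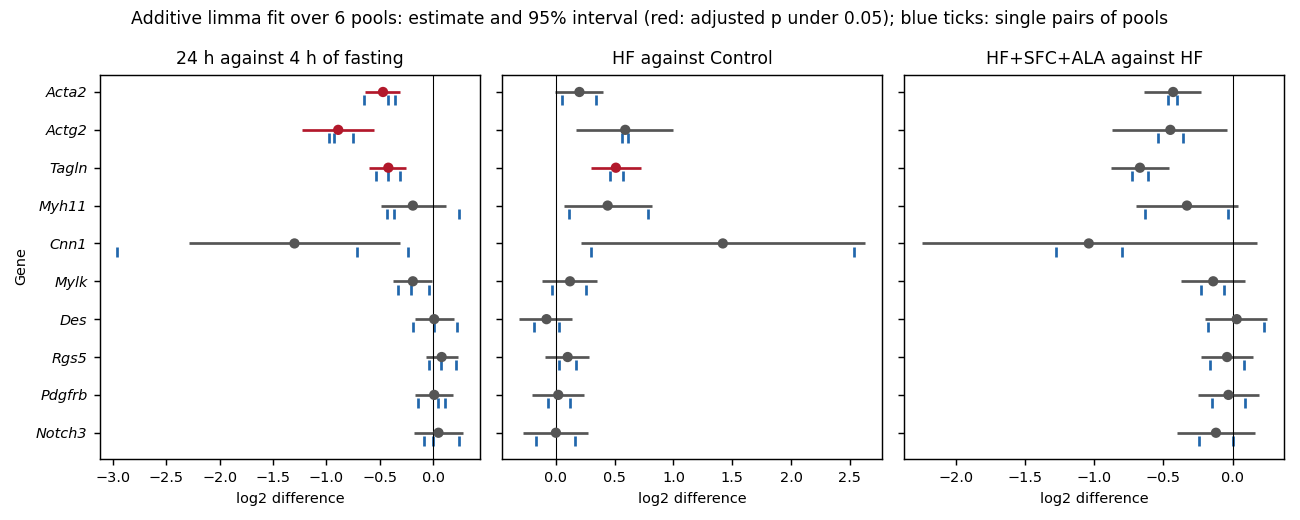
Log2 difference (x) of each gene (y) in 3 comparisons, with the limma estimate over 6 pools as a point and its 95% interval as a line, red where the adjusted p is under 0.05. Blue ticks are the single pairs of pools. Red points are Acta2, Actg2 and Tagln for fasting and Tagln for HF against Control, and Cnn1 has the widest intervals.

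The second comparison set the high-fat diet against the Control diet, within each fasting time. Tagln rose 1.42-fold (0.51 ± 0.09, limma adjusted p = 0.0457), with 0.57 at 4 h and 0.46 at 24 h. It was the 1 member of 10 past the threshold. Among all genes 102 of 11526 passed (0.885%), and 0.564% passed as higher. The called genes were 63.7% higher. Centring arrays on their medians moved the median of all genes by -0.11, called 352 genes of which 23% were higher, and gave 0.40 for Tagln with a limma adjusted p of 0.0589. Under quantile normalization Tagln gave 0.53 (limma adjusted p = 0.0504).

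Actg2 was 0.59 ± 0.18 (limma adjusted p = 0.193), with 0.56 at 4 h and 0.61 at 24 h. Myh11 was 0.44 ± 0.17 (limma adjusted p = 0.27), with 0.11 and 0.78. Cnn1 was 1.42 ± 0.54 (limma adjusted p = 0.273), with 0.30 at 4 h and 2.54 at 24 h, the latter against the near-floor Control pool. Acta2 was 0.20 ± 0.09 (limma adjusted p = 0.352), with 0.05 and 0.34. Mylk was 0.12 ± 0.10, with -0.03 and 0.26. The pericyte genes and desmin stayed near 0, with Rgs5 at 0.10 ± 0.08, Pdgfrb at 0.02 ± 0.10, Notch3 at 0.00 ± 0.12 and Des at -0.08 ± 0.10.

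The median of the members was 0.16 against 0.00 over all genes, 0.08 at 4 h and 0.30 at 24 h. At both times 6 of 10 members were above 0 (Acta2, Actg2, Tagln, Myh11, Cnn1 and Rgs5), against 29.4% of all genes, and 4 under median centring, without Acta2 and Rgs5. In 5 of 10 the HF pool was the highest of the 3 diets at both times, against 12.9% of genes. These were the contractile genes Acta2, Actg2, Tagln, Myh11 and Cnn1, of which Acta2 and Myh11 dropped out under median centring (3 of 10, against 5.81% of genes). The Tagln call was lost without the HF pool at 4 h or at 24 h, and without the HF+SFC+ALA pool at 4 h or at 24 h. Its estimate stayed at 0.51 in each of these fits. The HF+SFC+ALA pools do not enter that estimate, so leaving them out changed only its error. Myh11 passed without the Control pool at 4 h (0.63, limma adjusted p = 0.0145) or without the HF pool at 4 h (0.76, 0.0356). Cnn1 passed without the Control pool at 4 h (2.66, 1.01e-07), which leaves the near-floor pool alone to stand for Control.

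Rgs5 depended on the probe set. The 3 other Rgs5 probe sets, all above the filter, gave 0.24 ± 0.09, 0.34 ± 0.09 and 0.35 ± 0.11 for HF against Control (limma adjusted p over probe sets 0.297, 0.165 and 0.211). For HF+SFC+ALA against Control they gave 0.21 ± 0.09, 0.53 ± 0.09 and 0.38 ± 0.11 in the same order (0.397, 0.13 and 0.24), where the brightest gave 0.06 ± 0.08. The brightest probe set thus had the smallest estimate of the 4 in both comparisons, and no Rgs5 probe set passed.

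The third comparison asked what SFC and ALA changed on the high-fat diet. No gene of 11526 passed (0%), and 585 genes and 3 members had an unadjusted limma p under 0.05. Tagln had the lowest p of the members. It differed by -0.67 ± 0.09, a 1.59-fold lower level (limma adjusted p = 0.0772), with -0.61 at 4 h and -0.73 at 24 h. Acta2 differed by -0.43 ± 0.09 (limma adjusted p = 0.346), with -0.40 and -0.47. Actg2 differed by -0.45 ± 0.18 (limma adjusted p = 0.921), with -0.54 at 4 h and -0.36 at 24 h. Cnn1 differed by -1.04 ± 0.54, with -1.28 and -0.80, and ran from -1.84 without the HF+SFC+ALA pool at 24 h to -0.24 without that at 4 h. Myh11 differed by -0.33 ± 0.17, with -0.03 at 4 h and -0.63 at 24 h. It came to -0.01 when the HF pool at 24 h was left out and to -0.65 when that at 4 h was. Mylk was at -0.14 ± 0.10, while its other probe sets gave -0.25 ± 0.12 and -0.99 ± 0.30 (limma adjusted p over probe sets 0.987 and 0.844). Notch3 was at -0.12 ± 0.12. Rgs5 (-0.04, 95% interval -0.23 to 0.15), Pdgfrb (-0.03, -0.25 to 0.19) and Des (0.03, -0.20 to 0.25) were near 0.

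At both times 7 of 10 members were below 0 (Acta2, Actg2, Tagln, Myh11, Cnn1, Mylk and Notch3), against 26.7% of all genes. Under median centring these were Acta2, Actg2, Tagln and Cnn1, 4 of 10 against 16% of genes. Their median was -0.24 against 0.00 over all genes, with -0.10 at 4 h and -0.30 at 24 h. This comparison and HF against Control share the HF pools, so a high HF pool moves both, and the values are given side by side only. Tagln and Acta2 passed without the Control pool at 4 h or at 24 h, and Cnn1 without that at 24 h. Their estimates did not change (-0.67, -0.43 and -1.04). In such fits the lone Control pool is matched exactly and leaves no residual. The spread between pools then comes from the HF and HF+SFC+ALA pools alone, so these passes add nothing to the fit over all pools. Median centring also brought Tagln past the threshold (-0.60, limma adjusted p = 0.0459).

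HF+SFC+ALA was last set against Control. No member passed, and 4 of 11526 genes passed (0.0347%). An unadjusted limma p under 0.05 was found for 1 of 10 members, against 12.4% of all genes. Acta2 was at -0.24 ± 0.09 (limma adjusted p = 0.338), -0.35 at 4 h and -0.12 at 24 h. Tagln was at -0.16 ± 0.09 (limma adjusted p = 0.513), Actg2 at 0.13 ± 0.18 and Myh11 at 0.11 ± 0.17. Cnn1 was at 0.38 ± 0.54, with -0.98 at 4 h and 1.74 at 24 h, and passed without the Control pool at 4 h (1.62, limma adjusted p = 0.00787). Mylk, Des, Rgs5, Pdgfrb and Notch3 lay between -0.13 and 0.06, and the median of the 10 members was -0.02 against -0.01 over all genes.

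The members can be set out in 2 sets by what they encode, with no test between the sets. The 6 genes of the contractile apparatus (Acta2, Actg2, Tagln, Myh11, Cnn1 and Mylk) had a median fasting difference of -0.45. Their median was 0.48 between HF and Control and -0.44 between HF+SFC+ALA and HF. All 6 estimates were below 0, above 0 and below 0 in these comparisons as deposited, and under median centring Mylk came to 0.00 for HF against Control. Des, a filament gene of muscle in general, and the mural cell genes Rgs5, Pdgfrb and Notch3 had medians of 0.03, 0.01 and -0.03. The sets were not apart for each gene, since Mylk (-0.14) and Notch3 (-0.12) were alike for HF+SFC+ALA against HF. Over the 6 pools the 15 pairs of contractile genes had Pearson correlations of log2 signal from 0.66 to 0.93, with a median of 0.84. The 24 pairs of a contractile gene with one of the other 4 ran from -0.42 to 0.50. The 6 pairs among those 4 ran from -0.91, between Des and Pdgfrb, to 0.56. All points share the pools, the scaling and the near-floor Cnn1 value, so these correlations are descriptions without a test.

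**Figure D3:**
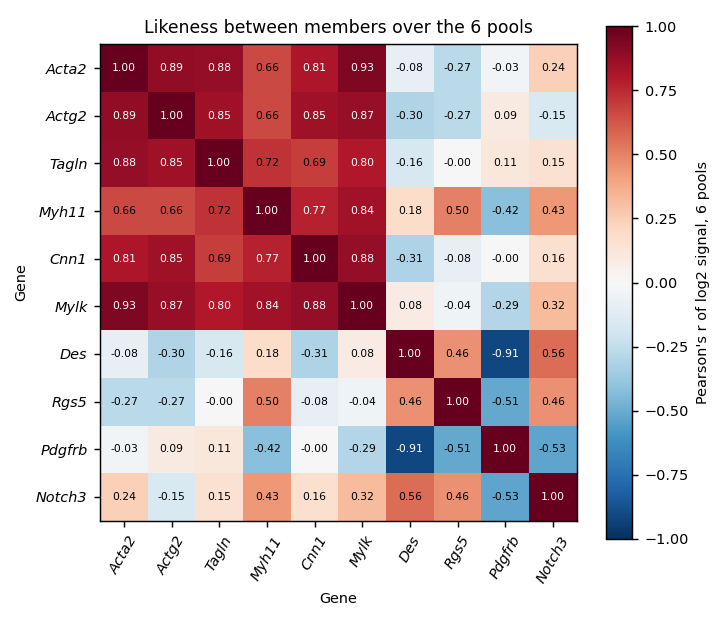
Pearson's r of log2 signal between members (both axes) over the 6 pools, from -1 (blue) to 1 (red). The block of 6 contractile genes holds values of 0.66 to 0.93, and their values with Des, Rgs5, Pdgfrb and Notch3 lie between -0.42 and 0.50.

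Among the other 11516 genes tested, those closest to Acta2 over the 6 pools were Ten1 (r = 0.993), Tgm2 (0.992, a transglutaminase), Pdxk (0.986, pyridoxal kinase), Camk1 (0.986, a calmodulin-dependent kinase) and Rbm12b1 (0.986). Tgm2 moved over a much narrower range than Acta2, from 3872 to 4584. Closest to Rgs5 were Mppe1 (0.992), Ctsb (0.989, cathepsin B), Pamr1 (0.989), Bag3 (0.984, a co-chaperone of muscle) and Zfp87 (0.984). These 6 points share their arrays and scaling, and the likeness carries no test.

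Of 19 further smooth muscle genes tested, none passed limma's threshold in the first 3 comparisons, where 4, 3 and 3 had an unadjusted p under 0.05. Over all genes tested the shares with such a p were 17.7%, 14.7% and 5.08%. Medians of the 19 genes were -0.05 (fasting), 0.11 (HF) and -0.13 (added SFC and ALA). The largest estimates were Flna (filamin A) for fasting at -0.40 ± 0.12 (adjusted p = 0.125), Pcp4l1 for HF at 0.68 ± 0.19 (0.167) and Myl9, a regulatory myosin light chain, for HF+SFC+ALA against HF at -0.37 ± 0.10 (0.661). Of 13 further pericyte genes, Aoc3, an amine oxidase that adipocytes also make, rose on the high-fat diet (0.98 ± 0.15, limma adjusted p = 0.018), with 1.03 at 4 h and 0.93 at 24 h. The list's medians were -0.13 for fasting, 0.27 for HF and -0.14 for HF+SFC+ALA against HF. For fasting its largest estimate was Ndufa4l2 at -0.36 ± 0.13 (adjusted p = 0.189), and for HF+SFC+ALA against HF it was Mcam at -0.65 ± 0.16 (0.523).

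Pathways that act on mural cells were read against the 2.41% of all genes called for fasting. Of 9 genes for serum response factor, its partners and opponents, Klf4, a factor that represses contractile genes in cultured smooth muscle, rose with fasting (0.44 ± 0.09, limma adjusted p = 0.0497), by 0.52, 0.58 and 0.21 in the pairs of the 3 diets, Control first. It was 1 of 9 past the threshold, and 5 of 9 had an unadjusted limma p under 0.05. Of 12 genes of the TGF-beta pathway, which induces the contractile genes, Smad3, a signal transducer, fell with fasting (-0.77 ± 0.11, limma adjusted p = 0.0129) and Tgfbr3, a co-receptor, rose (0.34 ± 0.07, 0.0491), with 3 of 12 at an unadjusted p under 0.05. None of 5 genes for platelet-derived growth factors and Pdgfra, 13 for Notch ligands, receptors and targets, or 11 that control contraction passed for fasting, where 1, 2 and 2 had an unadjusted p under 0.05. For HF against Control none of these 5 lists had a gene past the threshold, where 2, 2, 1, 5 and 0 had an unadjusted p under 0.05 in the order named. None passed for HF+SFC+ALA against HF either, where 1, 0, 0, 0 and 0 had an unadjusted p under 0.05. The largest estimates on the high-fat diet were Mrtfa (0.40 ± 0.19, limma adjusted p = 0.369), Tgfb1 (0.52 ± 0.37, 0.547), Pdgfd (0.48 ± 0.18, 0.272), Hes1 (1.02 ± 0.30, 0.169) and Avpr1a (-0.87 ± 0.52, 0.47). For fasting they were Pdgfd (-0.49 ± 0.15, 0.131), Jag2 (-0.39 ± 0.11, 0.117) and Rgs2 (0.58 ± 0.16, 0.098).

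Markers of other cells moved with the same comparisons. None of 13 endothelial genes passed for fasting or for HF against Control (unadjusted limma p under 0.05 in 1 and 2), with medians of 0.03 in each. Pecam1, the platelet endothelial adhesion molecule, ran from 791 to 947 over all pools, and the summed endothelial signal was 10962 to 12039 at 4 h and 11424 to 11903 at 24 h. Of 11 fibroblast genes, Col1a1 fell with fasting (-0.62 ± 0.09, limma adjusted p = 0.0129). The list as a whole did not share that difference, with 4 of 11 above 0, a median of -0.02, and medians of -0.17, 0.16 and -0.21 within the pairs of the 3 diets, Control first. On the high-fat diet 4 of the 11 rose, with Col3a1 at 0.93 ± 0.14, Col1a1 at 0.82 ± 0.11, Col1a2 at 0.74 ± 0.08 and Dpt at 0.53 ± 0.10 (limma adjusted p from 0.00652 to 0.0392). The summed fibroblast signal was 61760 and 62907 in the Control pools, 74967 and 74331 in the HF pools and 69010 and 61399 in the HF+SFC+ALA pools, the 4 h value first. For HF+SFC+ALA against HF 10 of 11 were below 0, with a median of -0.23, none past the threshold and 4 with an unadjusted limma p under 0.05. Col1a1, as a single gene, had the direction of Tagln in both comparisons in which Tagln passed, and so had the adipocyte genes Adipoq and Lep. The level of Col1a1 was 1883 and 1108 in the HF pools against 968 and 689 in Control and 1289 and 854 in HF+SFC+ALA.

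Of 9 adipocyte genes tested, Lep (3.74 ± 0.30), Adipoq (2.63 ± 0.21) and Cidec (1.91 ± 0.22) rose on the high-fat diet, Lep being at the floor in the Control pool at 24 h. With fasting the lipase Pnpla2 rose (0.49 ± 0.08, limma adjusted p = 0.0213). Lep (-0.99 ± 0.24, limma adjusted p = 0.0735) and Adipoq (-0.68 ± 0.17, 0.0838) did not pass and were below 0 in 3 of 3 pairs, as the called contractile genes were. For fasting 5 of the 9 were above 0 and 4 below, and 7 had an unadjusted limma p under 0.05. For HF+SFC+ALA against HF 8 of 9 were below 0, with 3 at an unadjusted limma p under 0.05, among them Adipoq (-1.84 ± 0.21, limma adjusted p = 0.0562) and Lep (-1.99 ± 0.30, 0.0775). Adipoq, adiponectin, stood at 901, 4637 and 1941 at 4 h and 577, 4280 and 796 at 24 h, in the order Control, HF, HF+SFC+ALA. The summed adipocyte signal was 81331 and 92043 in the Control pools, 95338 and 102131 in the HF pools and 88094 and 88918 in the HF+SFC+ALA pools. Adipoq and Lep, at most 4637 and 592, made up little of that sum. Of 10 macrophage genes Cd163 fell with fasting (-0.68 ± 0.15, limma adjusted p = 0.0491), and all 10 were above 0 for HF against Control, with none past the threshold and 5 with an unadjusted limma p under 0.05. Whether fibroblasts, fat or macrophages between the fibres carried any of the change in the contractile genes was not tested.

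None of 12 skeletal muscle fibre, 9 slow-fibre, 5 satellite cell or 4 Schwann cell genes passed in the first 3 comparisons. For fasting none of them had an unadjusted limma p under 0.05, for HF against Control 0, 0, 1 and 2 did, and 0, 0, 0 and 3 did between HF+SFC+ALA and HF. In the last comparison all 4 Schwann cell genes were below 0, with a median of -0.41 and the largest estimate for Mbp, myelin basic protein (-0.56 ± 0.10, limma adjusted p = 0.158). All 5 satellite cell genes were below 0 as well, with a median of -0.30. The part of nerve or satellite cells in the values of the contractile genes was not tested. The slow-fibre genes differed between diets in their fasting pairs, the Control, HF and HF+SFC+ALA pairs having medians of -0.17, 0.69 and -0.50. Myh7, the slow myosin, was at 8784, 6099 and 9992 at 4 h and 7813, 10109 and 6716 at 24 h. Myh11 shares the direction of that pattern, with a pair above 0 in HF and pairs below 0 in the other diets, while Acta2, Actg2 and Tagln were below 0 in all 3 pairs. The part of fibre composition in these values was not tested.

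**Figure D4:**
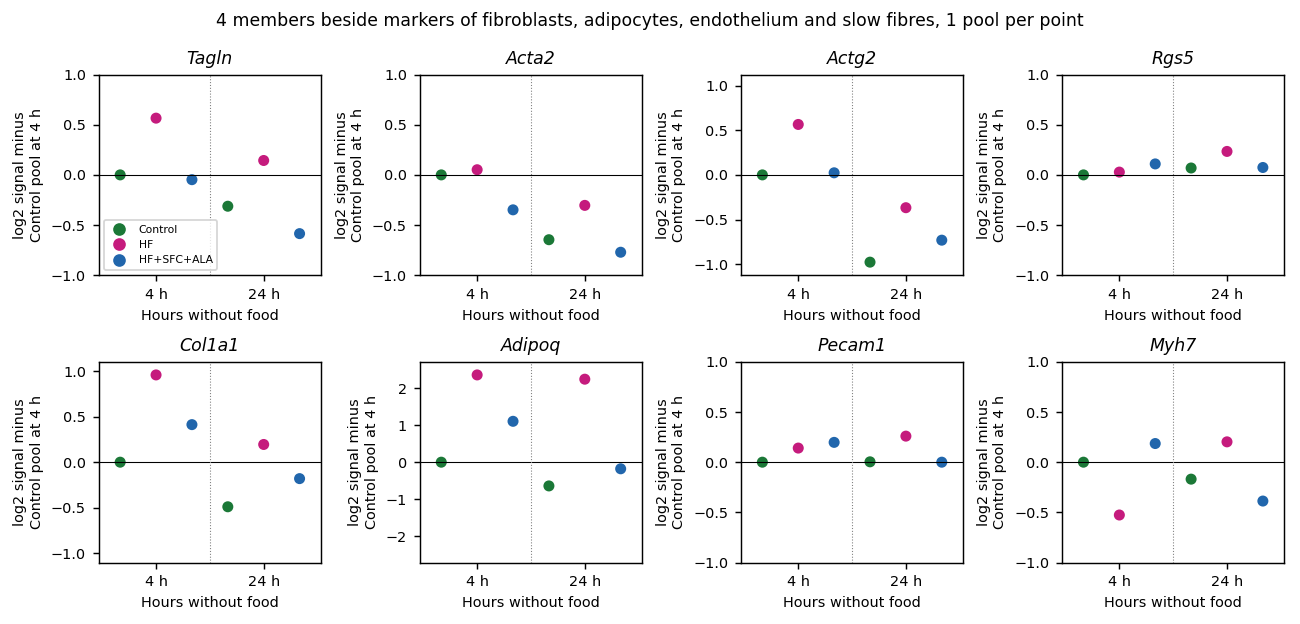
Log2 signal minus that of the Control pool at 4 h (y) for 4 members (top row) and 4 markers of other cells (bottom row), 1 point per pool, in the order Control, HF, HF+SFC+ALA at each fasting time (x, hours without food). Tagln, Acta2, Actg2, Col1a1 and Adipoq share the highest position of the HF pool at each time and the lower level of each diet at 24 h, while Rgs5 and Pecam1 stay close to 0.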

How the data were processed

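RNA from gastrocnemius pools was measured on 6 arrays. What was deposited is a linear intensity for each probe set. MAS5 made these values, per the submitters' processing notes, with no version or settings stated in the sources at hand. The mean after trimming 2% at each end was 500.0 on all arrays, so they had been scaled to one level.

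Leaving out 64 controls, 45037 of 45101 probe sets remained. The platform annotation gave 34945 exactly 1 gene symbol, 932 several and 9160 none listed, and only the first were named. Before log2, lower signals were raised to a floor of 26.4, the 30th percentile. Genes were kept where the mean log2 signal of the brightest probe set was above 5.88, the median of all probe sets other than controls.

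Diet and fasting time were fitted as additive terms over 11526 genes with limma 3.58.1 in R 4.3.3 (lmFit, eBayes with intensity trend, 2 residual and 7.27 prior degrees of freedom), adjusted by Benjamini-Hochberg over all genes at 0.05, and tested on simulated data. Counts of pairs and of pools that do not overlap carry no test. Single probe sets were fitted likewise over 22518. Tables and figures were made in Python 3.11.15 with numpy 2.4.6, pandas 2.3.3 and matplotlib 3.10.9.

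The members, gene lists and tests were chosen with earlier results of these data known. All members are named, and of each other list those past the threshold (at most 4), or the largest estimate where none passed, with fixed markers of other cells and the 5 genes closest to Acta2 and to Rgs5. Alternatives were quantile normalization, median centring, other filters, no floor, a pseudocount, the mean over probe sets, no intensity trend, the other factor left out, other probe sets and leaving out each pool.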

Additional observations from a re-analysis of the deposited data

How the results depend on the processing

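Direction held for Acta2, Actg2 and Tagln in every alternative run, being below 0 for fasting in 16 of 16, 15 of 15 and 15 of 15, while fewer passed the threshold (9, 8 and 8). In most of these runs the sign could not change. Other filters, no intensity trend and diet left out keep the same estimate (-0.47 for Acta2). Leaving out either pool of a diet drops that diet's pair, and every pair of these genes was below 0. For fasting, members called went from 3 to 0 and all genes from 278 to 0 with no filter or no intensity trend (limma unadjusted p under 0.05 in 2026 and 1639 genes), to 0 and 18 with the mean over probe sets, and to 0 and 60 with diet left out of the model. Leaving out single pools gave 0 to 3 members and 59 to 455 genes. For HF against Control, the 1 member called became 0 under quantile normalization, median centring, no filter, the mean over probe sets, no intensity trend, or fasting left out, and the 102 genes became 352 with median centring, 1 with the mean over probe sets and 0 with no filter, no trend or fasting left out (limma unadjusted p under 0.05 in 1993, 1348 and 982). Single pools left out gave 0 to 3 members and 47 to 592 genes. For HF+SFC+ALA against HF, median centring called 1 member and 18 genes, the 65th percentile filter 6 genes, and leaving out pools 0 to 3 members and 0 to 109 genes. For HF+SFC+ALA against Control, the 4 genes became 23 with median centring and 0 with quantile normalization, no filter, the mean over probe sets, no trend or fasting left out, and leaving out pools gave 0 to 1 member and 0 to 435 genes.

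The following members changed sign, and 1 of them passed the threshold, as given. In the fasting comparison Mylk gave 0.09 by 1 other probe set. Des gave 0.00 with quantile normalization and -0.02 with median centring, and -0.09 to 0.12 without single pools. Rgs5 gave -0.10 and -0.03 by other probe sets. Pdgfrb gave 0.00 with quantile normalization, -0.02 with median centring and -0.04 to 0.08 without single pools. Notch3 gave -0.10 with the mean over probe sets, -0.25 by its other probe set and -0.05 to 0.12 without single pools.

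Between HF and Control, median centring gave -0.02 for Rgs5 and -0.09 for Pdgfrb, and single pools left out gave -0.24 to 0.08 for Des and -0.08 to 0.13 for Pdgfrb. Notch3 gave 0.01 with quantile normalization or the mean over probe sets, 0.03 by its other probe set and -0.15 to 0.14 without single pools. Between HF+SFC+ALA and HF, Des gave -0.02 by its other probe set and -0.13 to 0.18 without single pools. Rgs5 gave 0.03 with median centring, 0.04 with the mean over probe sets, 0.04 and 0.19 by other probe sets and -0.13 to 0.06 without single pools. Pdgfrb gave 0.04 with median centring, 0.02 with the mean, 0.07 by its other probe set and -0.13 to 0.08 without single pools. Notch3 ran from -0.27 to 0.02 without single pools.

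Between HF+SFC+ALA and Control, Myh11 gave -0.58 with the mean over probe sets and -0.07 to 0.30 without single pools. Cnn1 ran from -0.86 to 1.62, and passed at the latter, without the Control pool at 4 h. Mylk gave 0.04 and -0.79 by its other probe sets and -0.13 to 0.08 without single pools. Des ran from -0.21 to 0.10 and Rgs5 from -0.03 to 0.14. Pdgfrb gave 0.00 with quantile normalization, 0.07 with the mean, 0.14 by its other probe set and -0.08 to 0.07 without single pools. The cause of each change was not tested. The number of pools limits every value, and Cnn1 in the Control pool at 24 h lay nearest the floor.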
